A study of Mus musculus with 6 samples.

Results

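The genes described here are 10 genes of the Polycomb repressive complexes, taken by name: Ezh2, Ezh1, Suz12, Eed, Jarid2 and Mtf2 of Polycomb repressive complex 2, and Rnf2, Ring1, Bmi1 and Cbx2 of Polycomb repressive complex 1. A peak belonged to a gene when the deposited annotation gave that gene as the one with the nearest transcription start site (TSS). By this rule 39 of the 97783 peaks in 6 lists belonged to 8 of the 10 genes, and Ring1 and Bmi1 had none. The 10 genes were set beside the 21900 protein-coding genes of the RefSeq table.

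The study used chromatin immunoprecipitation with sequencing (ChIP-seq) on primary neural stem cells, grown from newborn mouse cortex in medium with EGF and bFGF. Chd4, which drives nucleosome remodelling in the NuRD complex, was profiled in 4 libraries. Chd4 iKO was of mutant genotype and treated with 4-OH-TAM, and its control Chd4 Ctrl was wild type in growth medium. Chd4 siSeh1 and its control Chd4 siSCR were both wild type in growth medium. Seh1, a scaffold protein of the nuclear pore, was profiled in 2 libraries. Seh1-flag was titled iKO, but its genotype label is wild type and its treatment 4-OH-TAM, and the name in its file header starts with oe. Seh1 Ctrl was wild type in growth medium. The labels do not spell out iKO, siSeh1 or siSCR, which are read here as deletion of Seh1, its silencing and the control of the silencing. For strain, Cre driver, animal numbers and pooling, nothing is given in the sources used here. With 1 library in each group, any difference is one between 2 libraries, without a check by replicates. Peak lists do not measure RNA, so the cell type was not checked through them. Of 12 neural stem cell markers, 1 had a Chd4 promoter peak in iKO (Hes1) and 0 in Ctrl, and 2 had one in siSeh1 (Sox2 and Hes1) and 0 in siSCR. Of 6 oligodendrocyte lineage markers, 1 had one in iKO (Olig1) and 0 in Ctrl, and 3 in siSeh1 (Olig1, Olig2 and Sox10) and 0 in siSCR. Prom1, a neural stem cell marker, had the only Seh1 promoter peak of either set, in Seh1 Ctrl. The markers of neurons (6), astrocytes (5) and microglia and endothelium (6) had none in any list. Of all protein-coding genes, 5.18% had a Chd4 promoter peak in iKO and 11.8% in siSeh1, so 1 and 2 of the 12 stem cell markers are close to the background. The counts of 0 in the sets of 5 or 6 markers of other cell types are also close to the background. The 3 of 6 oligodendrocyte lineage markers in siSeh1 are above it, and in iKO that count rests on 1 gene.

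The lists held 21294 Chd4 peaks in iKO and 1154 in Ctrl, and 26935 in siSeh1 and 2606 in siSCR, so the perturbed lists were 18.5 and 10.3 times as long as their controls. Seh1-flag held 24961 peaks and Seh1 Ctrl 20833. The lists do not hold the total tags of a library, so its depth is unknown and a missing peak does not show that the protein was absent. A long list places peaks at more genes than a short one, and the counts of genes below are read against the share of all protein-coding genes with such a peak in the same list. The deposited peak score has no stated scale and was used only to rank peaks within a list. All scores of Seh1 Ctrl are 0, so its peaks have no rank.

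Polycomb repressive complex 2 methylates a lysine in the tail of histone H3, and Polycomb repressive complex 1 attaches ubiquitin to histone H2A. Both marks go with gene repression. In the developing cortex Ezh2 and its partners are known for holding the balance between self-renewal of progenitors and the timing of neurogenesis and gliogenesis. Ezh2 and Ezh1 are alternative catalytic subunits, Suz12 and Eed are the core partners that they need, and Jarid2 and Mtf2 are accessory subunits that help recruit the complex. Rnf2 and Ring1 are alternative ubiquitin ligases of Polycomb repressive complex 1, Bmi1 is a ligase partner, and Cbx2 is a chromodomain reader of methylated histone H3.

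The 2 promoters at which Chd4 peaks of more than 1 list met with the highest ranks were those of Ezh2 and Suz12, and their sequence is shown for that reason. Each line gives the 250 bases before the start in the RefSeq promoter table (GRCm38.p6, the assembly that mm10 represents), 5′ to 3′ on the strand of the gene. Capitals run from the first to the last Chd4 summit inside the stretch. The promoter of Ezh1, the alternative catalytic subunit, is shown beside them because no list had a peak there, and it has no capitals. Ezh2 lies at chr6:47595031-47595280 on the minus strand, Suz12 at chr11:79992856-79993105 on the plus strand, and Ezh1 at chr11:101226464-101226713 on the minus strand. The RefSeq span of Ezh2 reaches 47595270, so most of its stretch also lies inside a longer annotated form of the gene.
Ezh2: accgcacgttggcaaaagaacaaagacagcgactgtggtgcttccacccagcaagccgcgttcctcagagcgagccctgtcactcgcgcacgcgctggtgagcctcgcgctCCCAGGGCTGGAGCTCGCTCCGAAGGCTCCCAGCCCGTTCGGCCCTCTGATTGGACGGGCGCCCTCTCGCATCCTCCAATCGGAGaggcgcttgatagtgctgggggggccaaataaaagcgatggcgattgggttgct
Suz12: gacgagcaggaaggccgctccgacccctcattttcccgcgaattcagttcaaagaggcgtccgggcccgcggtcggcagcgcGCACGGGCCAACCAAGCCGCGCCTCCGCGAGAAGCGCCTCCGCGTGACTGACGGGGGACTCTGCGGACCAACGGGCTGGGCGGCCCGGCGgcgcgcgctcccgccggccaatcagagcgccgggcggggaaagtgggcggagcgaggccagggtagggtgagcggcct
Ezh1: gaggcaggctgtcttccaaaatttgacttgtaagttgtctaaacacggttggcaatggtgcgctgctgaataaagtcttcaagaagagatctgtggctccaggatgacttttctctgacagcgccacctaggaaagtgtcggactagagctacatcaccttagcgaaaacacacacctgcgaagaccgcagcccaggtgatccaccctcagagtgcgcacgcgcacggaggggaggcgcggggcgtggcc

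In Ezh2 the capitals span 85 bases. Counted from 1 at the 5′ end of the stretch, the iKO summit is base 112, the siSeh1 summit base 175 and the siSCR summit base 196. In Suz12 they span 90 bases, with the siSeh1 summit at base 83 and the iKO summit at base 172. The capitals hold 8 CpG dinucleotides in Ezh2 and 14 in Suz12. Over the whole stretches there were 23 in Ezh2, 37 in Suz12 and 14 in Ezh1.

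A promoter peak was one within 1 kb of the nearest TSS by the deposited distance. Chd4 had a promoter peak at 3 of the 10 genes in iKO (Ezh2, Suz12 and Jarid2; 5.18% of all protein-coding genes had one) and at 0 in Ctrl (0.0183%). It had one at 4 of the 10 in siSeh1 (Ezh2, Suz12, Jarid2 and Rnf2; 11.8%) and at 1 in siSCR (Ezh2; 1.63%). Seh1 had a promoter peak at 1 gene in Seh1-flag (Suz12; 1.33%) and at 0 in Seh1 Ctrl (1.02%). In these counts a single gene is 10% of the set, so the 1 gene in siSCR and the 1 gene in Seh1-flag are the smallest counts above 0 that the set can give.

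**Figure D1:**
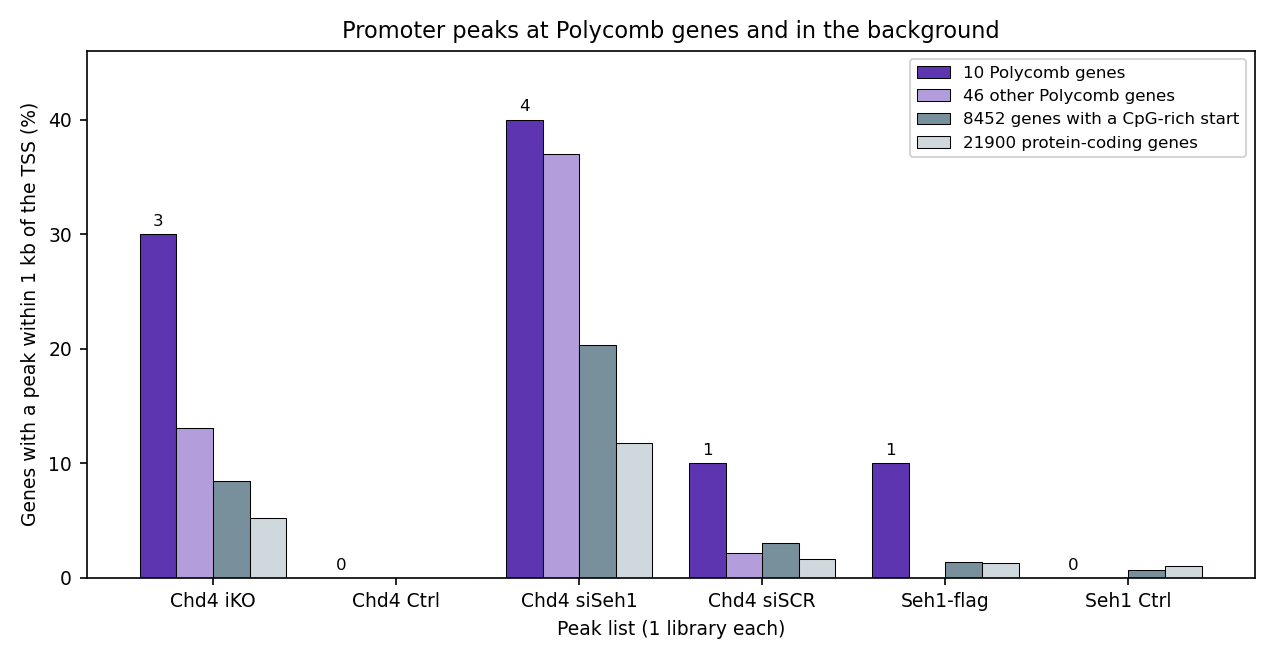
Share of genes with a peak within 1 kb of the TSS (vertical axis, percent) in each of the 6 peak lists (horizontal axis, 1 library each), for the 10 Polycomb genes, 46 other Polycomb genes, 8452 genes with a CpG-rich start and 21900 protein-coding genes. The number over the first bar of each list is the count of the 10 genes, 3 in iKO, 0 in Ctrl, 4 in siSeh1, 1 in siSCR, 1 in Seh1-flag and 0 in Seh1 Ctrl, and there are no error bars because there are no replicates.

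Ezh2, on chromosome 6 (gene span 47530274 to 47595270), alone among the 10 genes had promoter peaks in 3 of the 4 Chd4 lists. Its promoter peak lay at 47595169 in iKO with a score of 11.2 (rank 155 of 21294). In siSeh1 it lay at 47595106 with a score of 21.1 (rank 74 of 26935), and in siSCR at 47595085 with a score of 7.53 (rank 138 of 2606). The closest Ctrl peak lay 1305184 bp from the start. The 3 summits lay 139, 76 and 55 bp upstream of the start and within 84 bp of each other. Windows of 240 bp around them overlapped in all 3 pairs, and so did windows of 100 bp. A long noncoding RNA gene, F830010H11Rik, starts 179 bp away on the other strand. The iKO summit was closer to that start (40 bp) than to that of Ezh2, while the siSeh1 and siSCR summits lay 103 and 124 bp from it. The promoter peak can therefore not be given to Ezh2 alone.

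Away from its promoter Ezh2 had 5 more peaks. The siSeh1 list had 1 in intron 1 of 19, 2484 bp past the start with a score of 4.58, and 1 in intron 4 with a score of 3.03, both inside repeats. Seh1 Ctrl had 1 in intron 1, centred 2001 bp past the start, and 1 in intron 17. The intron 1 peaks of siSeh1 and Seh1 Ctrl were centred 483 bp apart and did not overlap. The iKO list had 1 intergenic peak 11506 bp upstream, in a long terminal repeat. Seh1-flag gave Ezh2 no peak, and its nearest peak lay 95532 bp from the start.

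Ezh1, on chromosome 11 (101191115 to 101226463), had a single peak over the 6 lists together. It lay in intron 4 of 20 at 101216548 in siSCR, 9915 bp past the start, with a score of 2.84 (rank 2072 of 2606). The nearest peak to its start lay 131058 bp away in iKO and 1337046 bp away in Ctrl. In siSeh1 it lay 42053 bp away. Of the catalytic subunits, Ezh2 thus had promoter peaks in 3 Chd4 lists and Ezh1 in none. Having none is the usual state, as 5.18% of all protein-coding genes had one in iKO, 11.8% in siSeh1 and 1.63% in siSCR.

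**Figure D2:**
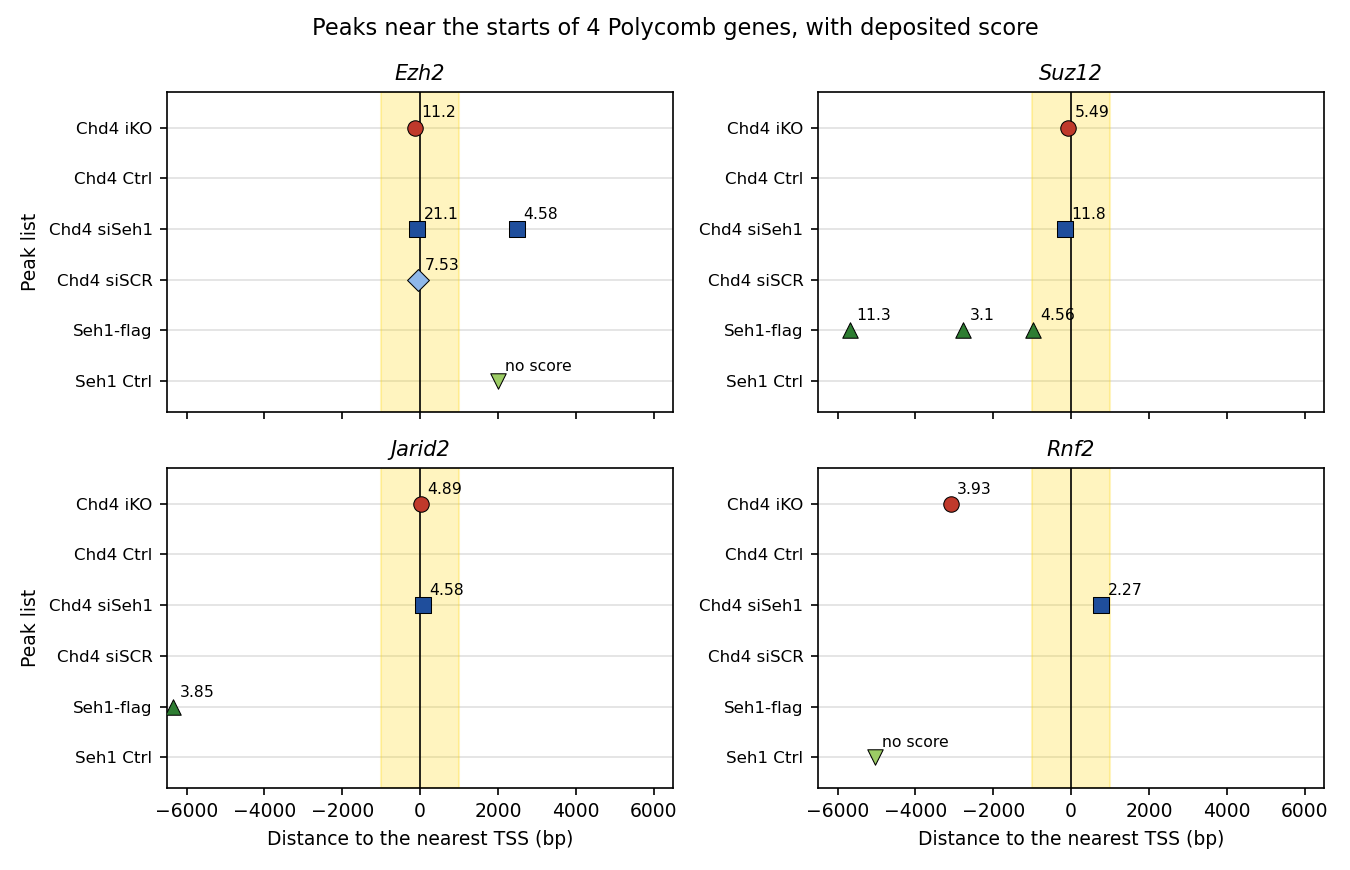
Peaks near the starts of Ezh2, Suz12, Jarid2 and Rnf2, by signed distance to the nearest TSS (horizontal axis, bp) and peak list (vertical axis); the shaded band is the promoter window and the numbers are the deposited scores, comparable only within a list. The iKO and siSeh1 summits of Ezh2, Suz12 and Jarid2 lie close to the start, the Ctrl lane is empty over the range shown, and siSCR has its single peak at Ezh2.

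Suz12, on chromosome 11 (79993106 to 80034123), had a Chd4 promoter peak in both perturbed lists and in neither control. In iKO the summit lay at 79993027, 79 bp upstream of the start, with a score of 5.49 (rank 1307). The closest Ctrl peak lay 3369646 bp from the start. In siSeh1 the summit lay at 79992938, 168 bp upstream, with a score of 11.8 (rank 378). In siSCR the nearest peak was 106895 bp away. The iKO and siSeh1 summits were 89 bp apart and their windows overlapped. The siSeh1 list also had a peak in intron 6 of 15 with a score of 2.84.

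Suz12 was the one gene of the set with a Seh1 promoter peak. Seh1-flag listed it at 79992133, 973 bp upstream and just inside the window, with a score of 4.56 (rank 13569 of 24961, below the middle of its list). Its distance to the Chd4 summits was 894 bp in iKO and 805 bp in siSeh1, and no windows overlapped. Further Seh1-flag peaks lay 2779 and 5687 bp upstream with scores of 3.10 and 11.3. The peak at 5687 bp was the best ranked of any Seh1-flag peak at the 10 genes (rank 360) and lay in a SINE repeat. Another lay in intron 8, also in a SINE repeat, with a score of 5.21. Seh1 Ctrl gave Suz12 no peak, and its nearest peak lay 41329 bp from the start.

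Eed, the subunit that binds methylated histone H3, is on chromosome 7 (89954654 to 89980976) and had no Chd4 peak in any list. The nearest Chd4 peak to its start lay 60875 bp away in iKO and 1254798 bp away in Ctrl. It lay 69541 bp away in siSeh1 and 240891 bp away in siSCR. Seh1-flag gave it 2 intergenic peaks, 6387 and 19765 bp upstream, with scores of 10.3 and 5.21, both in SINE repeats. Of the 3 core genes of Polycomb repressive complex 2, Ezh2 and Suz12 thus had Chd4 promoter peaks. Eed had none, like most protein-coding genes in each list.

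Jarid2, on chromosome 13 (44730774 to 44921643), had 13 peaks, the most of the 10 genes, and its span of 190870 bp was also the longest. Chd4 had a promoter peak in iKO at 44731289 with a score of 4.89 (rank 1785), and the closest Ctrl peak lay 7256733 bp from a start. In siSeh1 the peak lay at 44731344 with a score of 4.58 (rank 3562), and in siSCR the nearest peak was 302018 bp from a start. The 2 summits were 55 bp apart and lay 18 and 73 bp past the second of 2 annotated starts, at 44731271. Both summits also lay within 1 kb of the first start, at 44730774.

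The other Jarid2 peaks were distal. Chd4 had an intergenic peak 134004 bp upstream in iKO and one 89939 bp upstream in siSeh1. Seh1-flag had 4 intergenic peaks, 6338 to 59886 bp upstream, and 2 intron peaks, with scores between 3.85 and 4.65. Seh1 Ctrl had 3 intergenic peaks, 97071 to 145506 bp upstream. None of these distal peaks overlapped one of another list. A further 3 peaks inside the span of Jarid2 (1 in iKO and 2 in Seh1-flag) were nearer to the start of Dtnbp1 and so were not counted for Jarid2.

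Mtf2, on chromosome 5 (108065660 to 108109219), had no Chd4 peak in any list, and its nearest Chd4 peak lay 55357 bp from a start, in siSeh1. It had 1 Seh1 Ctrl peak, in intron 3 of 14, centred at 108084392 and 6227 bp past the nearest start. It was the only gene of the set whose nearest Chd4 peak in iKO (177331 bp) was farther from a start than that in Ctrl (119420 bp).

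Of the 4 genes of Polycomb repressive complex 1, Rnf2 alone had a promoter peak, in siSeh1. Rnf2, on chromosome 1 (151469398 to 151500991), had a Chd4 peak in siSeh1 at 151500215, 776 bp past the start, in intron 1 of 8 and in a CpG island. Its score of 2.27 was low in its list (rank 25230 of 26935). In siSCR the nearest peak was 392077 bp from the start. In iKO a peak lay 3094 bp upstream in a long terminal repeat, outside the promoter window, with a score of 3.93, and in Ctrl the nearest was 2864670 bp away. Rnf2 also had an intergenic siSeh1 peak 34400 bp upstream and a Seh1 Ctrl peak 5035 bp upstream.

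Cbx2, on chromosome 11 (119023019 to 119031275), had 3 intergenic peaks and no promoter peak. They lay 16928 bp upstream in iKO (score 2.30), 13314 bp upstream in siSeh1 (2.36) and 17208 bp upstream in Seh1-flag (5.49). The iKO and Seh1-flag summits were 280 bp apart, which left their windows of 240 bp separate. Ring1, on chromosome 17 (34020792 to 34024680), had its nearest Chd4 peaks 24284 bp from the start in iKO and 662663 bp in Ctrl, and 6917 bp in siSeh1 and 134040 bp in siSCR. Bmi1, on chromosome 2 (18677018 to 18686629), had them at 76689 bp in iKO and 368736 bp in Ctrl, and at 60281 bp in siSeh1 and 17393 bp in siSCR. For Bmi1 the siSCR peak was thus nearer than the siSeh1 peak.

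**Figure D3:**
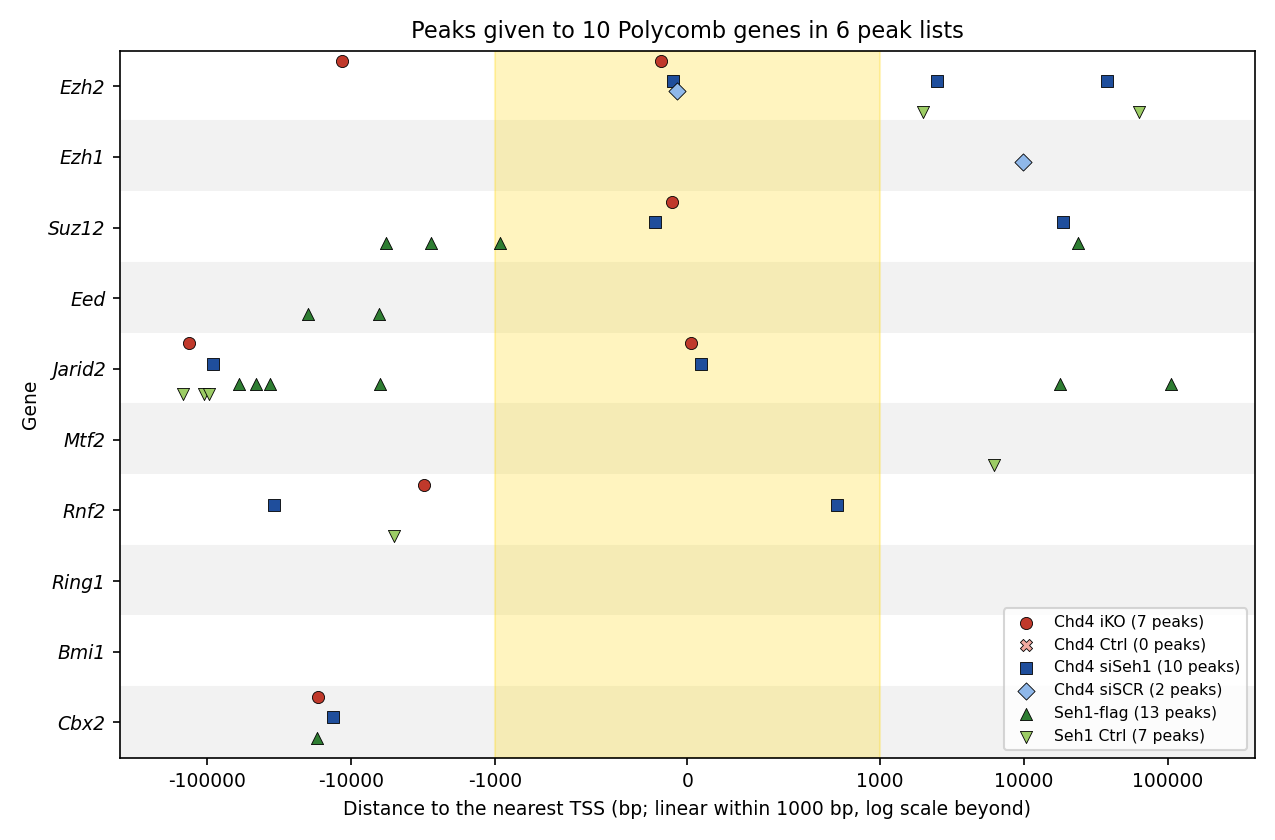
All 39 peaks of the 10 genes, by gene (vertical axis) and signed distance to the nearest TSS (horizontal axis, bp, linear within 1000 bp and on a log scale beyond), with a colour and marker for each list and the promoter window shaded. Chd4 iKO and siSeh1 symbols meet in the window at Ezh2, Suz12 and Jarid2, and the rows of Ring1 and Bmi1 are empty.

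Ranked among all genes with a promoter peak in the same list, protein-coding or not, Ezh2 stood near the top and the other genes lower. Ezh2 was 88th of 1245 promoter genes in iKO (7.07% from the top), 61st of 2750 in siSeh1 (2.22%) and 73rd of 384 in siSCR (19.0%). Suz12 was 494th in iKO (39.7%) and 313th in siSeh1 (11.4%). Jarid2 was near the middle of both lists, 552nd in iKO (44.3%) and 1514th in siSeh1 (55.1%). Rnf2 was 2714th of 2750 in siSeh1 (98.7%), and Suz12 was 210th of 370 in Seh1-flag (56.8%). The median promoter gene had a score of 4.74 in iKO, 5.14 in siSeh1 and 5.15 in siSCR, against medians over all peaks of 3.39, 3.35 and 3.34.

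**Figure D4:**
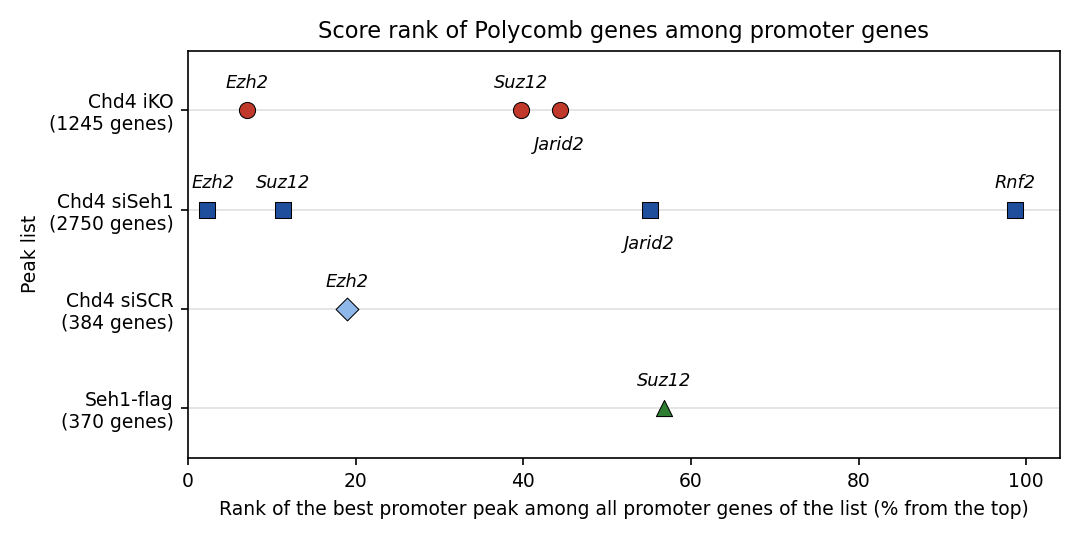
Rank of the highest promoter score of each gene among all promoter genes of the same list, protein-coding or not (horizontal axis, percent from the top). The vertical axis gives the 4 lists with a score and a promoter peak at the set. Ezh2 is the leftmost gene in the 3 Chd4 lists, and Rnf2 lies at 98.7% in siSeh1.

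Gained means here a promoter peak in the perturbed list that its control list lacks, and lost the reverse. Chd4 iKO and Chd4 Ctrl differ both in genotype and in 4-OH-TAM treatment, which cannot be told apart here. In iKO against Ctrl, 3 of the 10 genes were gained (Ezh2, Suz12 and Jarid2; 5.18% of all protein-coding genes) and 0 lost (0.0183%). Ctrl had a promoter peak at only 4 protein-coding genes, and all 1134 protein-coding genes with a promoter peak in iKO were gained. The gained count therefore repeats the iKO count, and 0 lost says little. In siSeh1 against siSCR, 3 were gained (Suz12, Jarid2 and Rnf2; 10.5%) and 0 lost (0.297%). Suz12 and Jarid2 were gained in both (2.17%). Ezh2 was gained in iKO against Ctrl alone, since siSCR listed it too, and it belonged to the 1.01% of genes with a promoter peak in iKO, siSeh1 and siSCR together. With siSCR in place of Ctrl as the control, iKO gained Suz12 and Jarid2 (2 of 10; 4.09% of all protein-coding genes).

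These counts move with list length. The lists also differed in composition. Promoter peaks were 5.96% of all peaks in iKO and 0.607% in Ctrl, and 10.5% in siSeh1 and 15.0% in siSCR. Cutting to equal length does not remove that difference. Cut to the 1154 peaks of highest score, the length of Ctrl, the iKO list kept a promoter peak at Ezh2 and not at Suz12 or Jarid2 (1 of 10; 2.04% of all protein-coding genes). Cut to 2606 peaks, the length of siSCR, the siSeh1 list kept Ezh2 and Suz12 and not Jarid2 or Rnf2 (2 of 10; 5.96%). At equal length Ezh2 was gained in iKO against Ctrl (1 of 10, 2.04%), as was every protein-coding gene with a promoter peak in the cut iKO list. Suz12 was gained in siSeh1 against siSCR (1 of 10; 4.7%), and Ezh2 was in both of those lists.

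Exon peaks were absent from the 10 genes in every list. Over all protein-coding genes the share with an exon peak was 1.48% in iKO and 0.0137% in Ctrl, 2.01% in siSeh1 and 0.155% in siSCR, and 0.26% in Seh1-flag and 0.863% in Seh1 Ctrl, so counts of 0 in 10 are close to the background. Intron peaks lay at 0 of the 10 genes in iKO (16.5% of all genes) and 0 in Ctrl (0.959%), at 3 in siSeh1 (Ezh2, Suz12 and Rnf2; 21.4%) and 1 in siSCR (Ezh1; 2.13%). They lay at 2 genes in Seh1-flag (Suz12 and Jarid2; 21.7%) and 2 in Seh1 Ctrl (Ezh2 and Mtf2; 17.6%). A peak of any class belonged to 5 genes in iKO (36.8%) and 0 in Ctrl (2.67%), to 5 in siSeh1 (46.4%) and 2 in siSCR (7.47%), and to 4 in Seh1-flag (38.9%) and 4 in Seh1 Ctrl (34.1%). In the 4 long lists the counts for a peak of any class, 4 or 5 of 10, were near the background.

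By the deposited classes, 20 of the 39 peaks were intergenic, 11 lay in introns and 8 in annotated promoters, and 12 lay in repeats. The promoter window held 9 peaks, these 8 and the intron 1 peak of Rnf2. Repeats were read from the detailed annotation, which gives a single label per peak. It labelled the 8 peaks in annotated promoters as promoter, so whether they lie in a repeat is not known. In repeats lay 3 of 7 peaks in iKO (48.2% of all peaks of that list), 2 of 10 in siSeh1 (41.5%) and 0 of 2 in siSCR (49.5%). In Seh1-flag 6 of 13 did (56.8%) and in Seh1 Ctrl 1 of 7 (49.1%).

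The position of peaks in different lists was compared within each gene, over 103 pairs of peaks. Windows of 240 bp overlapped in 5 pairs, 3 at Ezh2, 1 at Suz12 and 1 at Jarid2, and all 5 joined 2 Chd4 promoter peaks. The share of all protein-coding genes with such an overlap between Chd4 lists was not computed. These 5 pairs are therefore not read as particular to these genes. A Seh1 and a Chd4 peak of the same gene overlapped at 0 of the 10 genes and at 2.01% of all protein-coding genes. Among genes with peaks of both proteins these were 0 of 5 and 441 of 8627 (5.11%), so 0 is close to the background. The closest such pair was at Cbx2, with 280 bp between the iKO and Seh1-flag summits.

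Measured from the start of each gene to the nearest peak of any name, the median over the 10 genes was 20605 bp in iKO and 1321115 bp in Ctrl. The medians over 17492 protein-coding genes with a start in the promoter table were 36567 bp in iKO and 1478084 bp in Ctrl. In siSeh1 the 10 genes had a median of 10114 bp and all genes 22801 bp, and in siSCR 120468 bp and 318448 bp. In Seh1-flag the values were 23868 bp for the 10 genes and 34155 bp for all genes, and in Seh1 Ctrl 43046 bp and 46186 bp. The distances of the 10 genes spread over 18 to 177331 bp in iKO and 119420 to 9511307 bp in Ctrl, and over 73 to 69541 bp in siSeh1 and 55 to 605689 bp in siSCR.

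**Figure D5:**
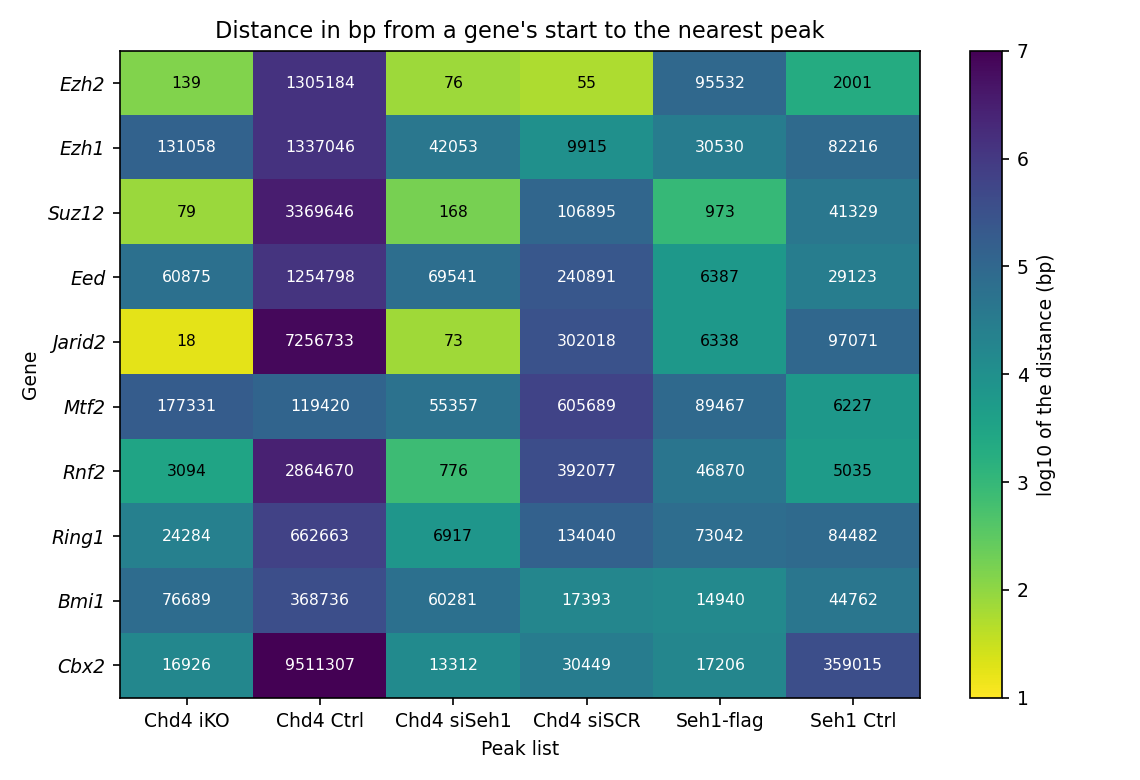
Distance in bp from the start of each of the 10 genes (rows) to the nearest peak of each list (columns), printed in each cell and coloured on a log10 scale. The Ctrl column lies at 119420 bp or more for every gene, and the shortest distances, 18 to 168 bp, are those of Ezh2, Suz12 and Jarid2.

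The starts of these genes are rich in CpG. Of the 11 promoter windows of 300 bp that the RefSeq table holds for 9 of the genes (Cbx2 has no entry), 10 had a GC content of at least 50% and a ratio of observed to expected CpG of at least 0.6. Of all 21263 windows of protein-coding genes, 45.1% did. Suz12 had 41 CpG, Ring1 37, Ezh2 31, Mtf2 30 at its first start and Rnf2 30, against a median of 13 over all windows. Jarid2 had 24 and 23 at its starts, Ezh1 and Bmi1 had 23 each and Eed 17. The second start of Mtf2 had 2 CpG and a GC content of 45.7%, below the median CpG count. Genes with a CpG-rich window had promoter peaks more often than other genes in 3 Chd4 lists. The shares were 8.44% against 2.67% in iKO, 20.3% against 4.81% in siSeh1 and 3.02% against 0.531% in siSCR. In Ctrl they were 0.0118% against 0.0221%, in Seh1-flag 1.36% against 1.28% and in Seh1 Ctrl 0.698% against 1.28%. These shares are given because 9 of the 10 genes had a CpG-rich window.

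Short motifs were searched on both strands of these windows. The CCAAT box of NF-Y (CCAAT) was in 6 of the 11 windows and in 38.2% of all windows. The 6 were those of Ezh2, Suz12, Eed, Jarid2 (both starts) and Mtf2 (its second start only). Ezh2 held 3 copies, and 2 of them, at bases 161 to 165 and 187 to 191 of the printed stretch, lie between the iKO and siSCR summits. The GC box of Sp factors (GGGCGG) was in 7 of the 11 windows and in 46.2% of all windows. The 7 belonged to 6 of the 9 genes, Suz12, Jarid2, Mtf2, Rnf2, Ring1 and Bmi1. In Suz12 1 of 3 copies, at bases 160 to 165, lies between its summits. An E2F site (TTTGGCGC or TTTCGCGC) was in the window of Ezh2 alone among the set, past the printed stretch, and in 1.05% of all windows. The core of the NRF1 site (GCATGCGC) and the CREB site (TGACGTCA) were in none of the 11 windows, and in 3.52% and 2.23% of all windows. These matches describe the letters only.

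A list of 46 other Polycomb genes was set beside the 10. Chd4 promoter peaks were at 6 of them in iKO (13.0%) and 0 in Ctrl, and at 17 in siSeh1 (37.0%) and 1 in siSCR (2.17%). The shares of all protein-coding genes were 5.18%, 0.0183%, 11.8% and 1.63% in the same order, and those of genes with a CpG-rich window 8.44%, 0.0118%, 20.3% and 3.02%. Seh1-flag and Seh1 Ctrl had none. Gained in both comparisons were 5 of the 46, and 2.17% of all protein-coding genes. The 5 were Rybp, L3mbtl2, Scmh1, Foxk2 and Kdm6a. Rybp docks on the ubiquitin ligase in variant forms of Polycomb repressive complex 1, and L3mbtl2 is a subunit of another variant form. Scmh1 is a sterile alpha motif protein, and Foxk2 a forkhead partner of the H2A deubiquitinase. Kdm6a removes the methyl mark of Polycomb repressive complex 2. Scores are not comparable between lists, so the rank in percent from the top of the list follows each. In iKO the scores were 4.74 for Kdm6a (10.3%), 6.49 for Rybp (2.58%), 3.83 for L3mbtl2 (38.6%), 3.11 for Foxk2 (67.4%) and 3.46 for Scmh1 (45.5%). In siSeh1 they were 12.2 for Kdm6a (1.24%), 6.50 for Rybp (4.51%), 6.57 for L3mbtl2 (4.48%), 10.8 for Foxk2 (1.74%) and 3.35 for Scmh1 (49.8%). The summits of Rybp were at -167 bp from the start in iKO and -172 bp in siSeh1. Those of Kdm6a were at -94 and -83 bp, and those of L3mbtl2 at 54 and 35 bp. The summits lay farther apart at Foxk2 (83 and -83 bp) and at Scmh1 (751 and -134 bp). Yaf2, the paralogue of Rybp, was gained in iKO against Ctrl with a score of 7.93 and had no promoter peak in siSeh1.

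Among the partners of Polycomb repressive complex 2, Epop, Rbbp4 and Rbbp7 had promoter peaks in siSeh1 (scores 7.19, 6.28 and 8.29), and Aebp2, Phf1, Phf19 and Lcor had none in any list. Rbbp4 and Rbbp7 are histone-binding proteins that are also part of the complex of Chd4. Among genes of Polycomb repressive complex 1, siSeh1 also held Pcgf5 (3.65), Dcaf7 (6.94), Auts2 (4.58), E2f6 (2.68), Cbx8 (6.28), Phc1 (3.35) and Phc2 (5.66). The lowest of these, E2f6, stood 80.7% from the top of the list. Asxl2, a cofactor of the H2A deubiquitinase, had a score of 4.85 there. Yy1, a DNA-binding factor related to a Polycomb recruiter of flies, was the only one of the 46 listed in both siSeh1 (score 6.50) and siSCR (2.96). Its peak stood 4.51% from the top in siSeh1 and 75.4% in siSCR. Its summits were at -403 bp from the start in siSeh1 and -379 bp in siSCR.

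Other genes shared the pattern of Ezh2. Of 214 protein-coding genes with promoter peaks in iKO, siSeh1 and siSCR and none in Ctrl, the 4 closest to Ezh2 in the percentile of their best promoter peak, summed over the 3 lists, were Mxd1, Ubald2, P4hb and Ppm1b. Their summed differences ranged over 0.305 to 0.847 percentage points. Mxd1, a Max partner that opposes Myc, had scores of 9.42 in iKO, 20.2 in siSeh1 and 7.53 in siSCR. Among the 4 Chd4 lists, Suz12 had promoter peaks in iKO and siSeh1 alone. Of 462 genes with that pattern, the closest to Suz12 were Akap11, Med13, Mob3a, Snrnp25 and Stap2, within 0.174 to 1.13 percentage points over 2 lists. Akap11 had scores of 5.49 in iKO and 11.1 in siSeh1.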

How the data were processed

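Each of the 6 deposited files lists peaks that HOMER had annotated against mm10 (mouse), per the file headers. The submitters' processing notes give Bowtie2 and HOMER with no version, and human builds rather than mm10. Nothing on the caller, threshold, input or pooling is given in the sources used here. The deposited peak score is 1 value a peak, of no stated scale, and 0 throughout Seh1 Ctrl. In 5 lists a peak is a single position, per the file headers a summit, and these were widened to 240 bp for overlaps. Seh1 Ctrl holds intervals of 240 to 1296 bp. The total tag count of each library is unknown, so intervals on shares were not computed.

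Peaks went to genes by the deposited gene name. Of 18892 gene identifiers 99.8% matched the RefSeq table of GRCm38.p6, as did all 10 genes. Sequences are from RefSeq (GRCm38.p6). Python 3.11.15, numpy 2.4.6 and pandas 2.3.3 were used, and the counting was tested on simulated data. Presence or absence of a peak was compared with no test, as each group had 1 library. The genes, lists and window were chosen with earlier results of these data known. Genes other than the 10 were named where they were on the list of 46 with a promoter peak in at least 1 list, or among the 5 closest in pattern to Ezh2 or Suz12, with predicted and microRNA genes left out; 1 of these genes is not reported here. The CpG-rich share and the motifs were chosen after the data were seen. Alternatives changed the promoter window, score limit, list length, control list, gene assignment and overlap window.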

Additional observations from a re-analysis of the deposited data

How the results depend on the processing

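Of 112 counts recomputed under an alternative, 42 were 0 both as reported and under the alternative, which says nothing about stability. Of the other 70, 54 stayed within 1.5 times the reported count and 16 did not. At equal list length the genes with a Chd4 promoter peak numbered 1 in iKO and 2 in siSeh1, with 1 gained in iKO against Ctrl and 1 in siSeh1 against siSCR. The single Seh1-flag promoter gene, Suz12, gave 0 with a window of 500 bp (0.498% of all protein-coding genes) and 0 with scores at or above the list median (0.735%). With a window of 5 kb Seh1 Ctrl had 1 gene, Ezh2 (5.95%), and the 46 other Polycomb genes had 6 in Seh1-flag (9.07% of all protein-coding genes) and 2 in Seh1 Ctrl (5.95%). With 2 kb they had 1 in Seh1-flag (3.33%). Counting peaks inside the gene span in place of the nearest start left 2 genes with any peak in iKO (21.9%), 2 in Seh1-flag (23.7%) and 2 in Seh1 Ctrl (20.5%). In siSCR 1 gene with any peak had a score at or above the list median (3.97%). By the detailed annotation, which sets repeats and CpG islands apart, 1 gene had an intron peak in siSeh1 (15.2%) and 1 in Seh1-flag (12.3%). The cause of these moves was not tested, beyond the shorter list or narrower window that makes them. The score limit and equal length could not be applied to Seh1 Ctrl, whose scores are all 0, and equal length was not applied to Seh1-flag. No paired analysis was possible because each group had 1 library and no test was run. The depth of each list is unknown, which limits every count of 0.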
